A study of Mus musculus with 22 samples.

Results

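The genes described here encode 6 families of membrane carriers that move bicarbonate, protons, sodium, calcium, chloride or sulfate across cell membranes: SLC4, SLC26, SLC9, SLC12, SLC8 and SLC24. A gene was taken as a member when its symbol in the deposited normalised table was Slc4a, Slc8a, Slc9a, Slc12a, Slc24a or Slc26a followed by a number, with 1 exception that is not analysed here. The rule used names only and no measured value. It gave 44 genes of the 28711 in that table, made up of 9 SLC4, 10 SLC26, 9 SLC9, 9 SLC12, 3 SLC8 and 4 SLC24 genes. RNA was sequenced in bulk from mouse first mandibular molars. The groups were 5 libraries from Tgfbr2-G357W/+ mice (Het) and 5 from Tgfbr2-+/+ wild-type littermates (WT) at postnatal day 11 (P11), and 6 Het and 6 WT libraries at postnatal day 5 (P5). Het mice carry 1 copy of a glycine-to-tryptophan substitution in the type II TGF-beta receptor and are a model of Loeys-Dietz syndrome type II, a connective tissue disorder. The labels name no tissue-specific driver for the allele, so an effect could not be assigned to a cell type, and as a point substitution it cannot be checked from counts per gene. The submitters name 5 Het and 8 WT mice for the 22 libraries, so some libraries may share an animal, and p-values measure the spread between libraries.

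Enamel mineral forms from calcium and phosphate outside the ameloblasts, and its growth releases protons. Ameloblasts first secrete a protein matrix (the secretory stage), then degrade it while the crystals thicken (the maturation stage). During maturation they are known to secrete bicarbonate made by carbonic anhydrases, through chloride-bicarbonate exchangers of the SLC4 and SLC26 families that work beside the chloride channel CFTR, while sodium-bicarbonate cotransporters of SLC4 and sodium-proton exchangers of SLC9 load bicarbonate and extrude protons. SLC8 carriers export calcium in exchange for sodium, and SLC24 carriers export calcium and potassium together. SLC12 proteins are cation-chloride cotransporters and not exchangers; they set cell chloride and volume. SLC26 carriers also transport sulfate and oxalate.

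Several carriers differed strongly in level between P11 and P5 in both genotypes. The anion exchangers Slc26a1 and Slc26a7, the red-cell exchanger Slc4a1 and Slc4a11 were higher at P11, by 2.45- to 9.88-fold. The calcium exchangers Slc24a2 and Slc24a3, the potassium-chloride cotransporter Slc12a4 and the sulfate transporter Slc26a2 were lower at P11, by 1.83- to 10.7-fold. None of the 40 members tested passed the test between Het and WT at either age. Few genes did: 0.0232% of all genes tested were higher and 0.00465% lower in Het at P11, and 0.0651% and 0.195% at P5.

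The sequence before the start of transcription is shown for the 3 members with the largest higher call and the 3 with the largest lower call at P11 in WT molars that had a RefSeq promoter entry, as examples from both ends of the ranking by fold. Of the higher ones, Slc12a1 and Slc26a3 passed the filter on low counts through their P11 libraries only, so a higher level was built into their being tested. An entry was found for 32 of the 44 members (RefSeq, GRCm38.p6). Each run is the 250 bases before the start, 5′ to 3′ on the gene's strand, shown only as far as the first base that GENCODE annotates as an exon; where a gene had several starts, the window with the fewest exon bases was taken. The first 3 lines belong to genes higher at P11: Slc26a1 (ENSMUSG00000046959) at chr5:108674797-108675046 on the minus strand, Slc26a3 (ENSMUSG00000001225) at chr12:31437969-31438216 on the plus strand and Slc12a1 (ENSMUSG00000027202) at chr2:125152350-125152504 on the plus strand. The last 3 belong to genes lower at P11: Slc24a2 (ENSMUSG00000037996) at chr4:87230541-87230790 on the minus strand, Slc24a3 (ENSMUSG00000063873) at chr2:145242361-145242610 on the plus strand and Slc12a4 (ENSMUSG00000017765) at chr8:105966116-105966365 on the minus strand. The RefSeq starts used for Slc26a1, Slc26a3 and Slc24a3 lie inside the gene as GENCODE annotates it, so these 3 windows are not at its 5′ end. The start used for Slc12a1, at 125152600, also lies inside its gene, which GENCODE begins at 125152505. Of its window, 95 bases are annotated as exon and are not shown. Capitals mark the matches, on either strand, to 5 short motifs that are spelled out after the sequences, where no base of the match is annotated as exon. Of the 2 CCAAT matches in the Slc12a1 window, 1 is marked. Matches and GC content given below refer to the full 250 bases.
Slc26a1: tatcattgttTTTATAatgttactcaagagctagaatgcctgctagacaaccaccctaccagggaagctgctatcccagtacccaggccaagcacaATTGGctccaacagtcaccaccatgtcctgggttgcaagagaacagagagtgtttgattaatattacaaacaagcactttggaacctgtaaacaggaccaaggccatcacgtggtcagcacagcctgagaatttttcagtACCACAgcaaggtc
Slc26a3: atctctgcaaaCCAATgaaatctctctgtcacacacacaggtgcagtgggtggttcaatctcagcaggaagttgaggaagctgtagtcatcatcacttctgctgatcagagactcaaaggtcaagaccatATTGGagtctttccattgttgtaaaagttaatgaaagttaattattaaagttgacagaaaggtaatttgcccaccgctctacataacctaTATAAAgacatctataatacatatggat
Slc12a1: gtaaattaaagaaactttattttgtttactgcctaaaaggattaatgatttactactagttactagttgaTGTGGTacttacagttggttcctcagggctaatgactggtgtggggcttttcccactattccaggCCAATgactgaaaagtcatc
Slc24a2: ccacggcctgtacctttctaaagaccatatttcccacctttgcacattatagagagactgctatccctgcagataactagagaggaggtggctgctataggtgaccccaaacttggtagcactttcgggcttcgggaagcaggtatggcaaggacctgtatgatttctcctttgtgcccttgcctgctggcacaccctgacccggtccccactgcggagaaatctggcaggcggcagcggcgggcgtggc
Slc24a3: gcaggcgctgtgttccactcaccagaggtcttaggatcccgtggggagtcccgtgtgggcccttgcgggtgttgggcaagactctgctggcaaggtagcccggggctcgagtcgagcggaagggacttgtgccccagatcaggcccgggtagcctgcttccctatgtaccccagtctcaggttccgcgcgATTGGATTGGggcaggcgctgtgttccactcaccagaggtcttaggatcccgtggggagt
Slc12a4: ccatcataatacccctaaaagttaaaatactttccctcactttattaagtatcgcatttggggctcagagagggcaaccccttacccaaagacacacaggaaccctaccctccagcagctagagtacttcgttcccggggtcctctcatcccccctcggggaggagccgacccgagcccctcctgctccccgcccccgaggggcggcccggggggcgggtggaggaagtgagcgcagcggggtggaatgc
The TATA box, TATAAA, was matched in the Slc26a1 and Slc26a3 windows, and 12.4% of all 32851 RefSeq windows of this length held it. The CCAAT box was matched in the windows of Slc26a1, Slc26a3, Slc12a1 and Slc24a3 (33.8% of all windows). The RUNX motif TGTGGT was matched in those of Slc26a1 and Slc12a1 (14% of all windows). No window of the 6 held the AP-1 motif TGANTCA (6.75% of all windows). None held the SMAD motif CAGAC either (42.2% of all windows). The windows of the higher genes had a GC content of 46.0% for Slc26a1, 38.8% for Slc26a3 and 39.6% for Slc12a1, and those of the lower genes had 56.0% for Slc24a2, 63.6% for Slc24a3 and 60.8% for Slc12a4. The median over all windows was 52.4%. With 3 windows a side these are descriptions, and a match is not a shown binding site.

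Libraries held 32903949 to 45343744 counts, and replicates of every group differed by more than sampling noise. P5 Het 6 is a P5 library by its title and library name, but its tissue and treatment fields say P11; it was kept with P5. Without it, 13 members were called higher and 7 lower at P11 in Het molars. Levels are given as CPM, the counts scaled to the library size. Ameloblast markers set the ages apart. The summed level of 11 maturation-stage markers was 60000 to 84300 CPM in P11 Het and 60600 to 72200 CPM in P11 WT libraries, against 1620 to 2530 CPM in P5 Het and 2280 to 3380 CPM in P5 WT libraries. The sum of 10 secretory-stage markers was 19100 to 45700 CPM in P11 Het and 18200 to 27000 CPM in P11 WT, against 124000 to 164000 CPM in P5 Het and 155000 to 171000 CPM in P5 WT. P5 Het 6 itself had 2130 CPM of the maturation-stage and 164000 CPM of the secretory-stage markers. Both sums lay among those of the P5 libraries and apart from every P11 library. Odontoblast markers were detected in every group (2790 to 4300 CPM). Markers of oral keratinocytes were raised in P11 WT 4 (1760 CPM), P11 Het 2 (1040 CPM) and P11 WT 5 (758 CPM), against 68.9 to 241 CPM in the other P11 libraries and 5.61 to 21.6 CPM at P5. In bulk tissue, fewer cells of a type and less RNA per cell cannot be told apart, and whether the make-up of the samples accounts for any value below was not tested.

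**Figure D1:**
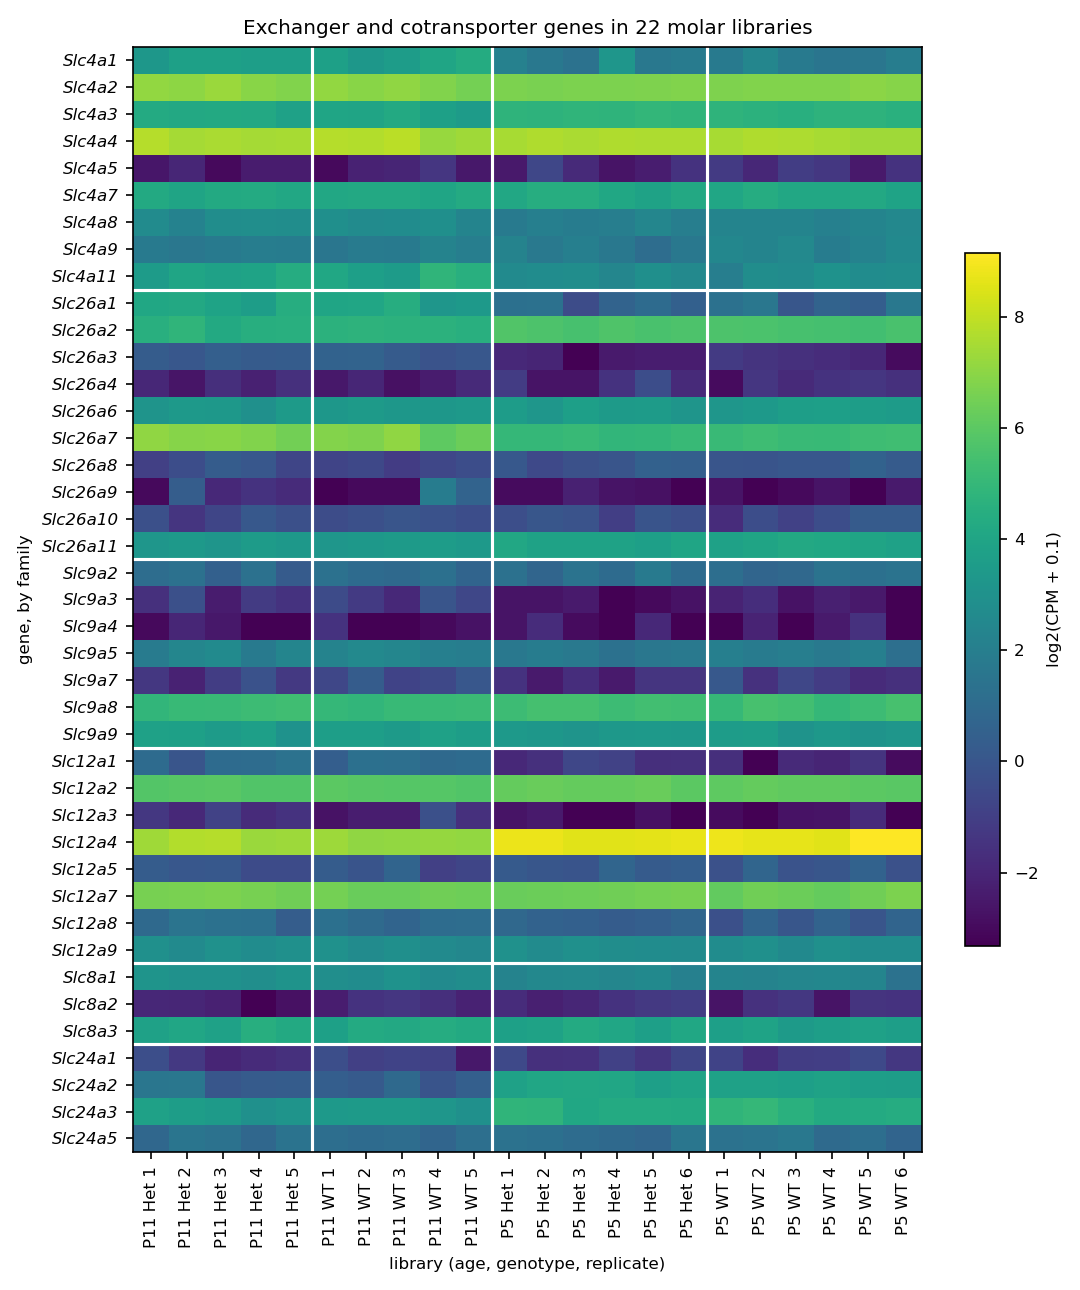
Level of 41 of the 44 members (down the page) in each of the 22 libraries (across; P11 Het, P11 WT, P5 Het, P5 WT) as log2 of CPM plus 0.1, yellow where high and dark blue where low. Slc12a4, Slc4a4 and Slc4a2 are high in every library, and Slc26a1, Slc26a3 and Slc12a1 change between the P11 and P5 columns.

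The members covered a wide range of levels. Averaged over all libraries, 30 of the 44 reached 1 CPM, 19 reached 10 CPM and 3 reached 100 CPM. Those 3 were Slc12a4 (KCC1, a potassium-chloride cotransporter of most cells), Slc4a4 (NBCe1, the electrogenic sodium-bicarbonate cotransporter) and Slc4a2 (AE2, a chloride-bicarbonate exchanger of many epithelia and osteoclasts). Per kilobase of exon, Slc12a4 ranked first at both ages, with 37.8 CPM per kb at P11 and 103 CPM per kb at P5. At P11 Slc26a7 (19.9 CPM per kb), Slc4a4 (17.7) and Slc4a2 (15.1) came next. At P5 Slc4a4 (17.4 CPM per kb) and Slc4a2 (13.2) followed Slc12a4, and Slc26a7 had 6.33 CPM per kb and rank 9. Among the last places were Slc12a3 (NCC, the thiazide-sensitive cotransporter of the kidney), Slc9a4, Slc4a5 and Slc8a2, whose group means were 0.0321 to 0.276 CPM. The library kit did not keep strand, so reads of overlapping genes cannot be told apart: 39.5% of the exon bases of Slc24a5 overlap Myef2, and 21.3% of those of Slc9a4, 17.8% of those of Slc26a10 and 14.9% of those of Slc4a2 overlap other genes.

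At P11 compared with P5, 13 of the 40 members tested were higher, 7 were lower and 20 did not pass the test in Het molars, where 24.4% of all genes tested were higher and 23.4% lower. In WT molars 14 were higher, 10 lower and 16 did not pass, where 24.8% of all genes were higher and 24.7% lower. A gene counts as higher or lower when edgeR's quasi-likelihood test gave a Benjamini-Hochberg adjusted p under 0.05 over 21510 genes. These shares of members are of the same order as in all genes, and the median log2 fold change of the members was 0.03 in both genotypes, against -0.01 for all genes. Of the called members, 12 were higher in both genotypes (of 13 in Het and 14 in WT) and 7 were lower in both (of 7 and 10). The ranges of the P11 and P5 libraries did not overlap for 8 members above and 7 below in Het molars (15.9% and 14.4% of all genes), and for 7 above and 7 below in WT molars (16.6% and 15.5%). No member passed the test of whether the age difference itself differed between the genotypes, where 0.0139% of all genes passed as higher and 0.0% as lower. Slc12a1, Slc26a3 and Slc9a3 passed the filter on low counts through their P11 libraries only, so a higher level at P11 was built into their being tested; of the other 37, 10 were higher and 7 lower in Het molars and 11 higher and 10 lower in WT molars. Without the 5 libraries with raised oral keratinocyte or muscle markers, 11 members were higher and 8 lower in Het molars, and 14 higher and 9 lower in WT molars. No library-name prefix occurs at both ages, so age and whatever the prefix stands for cannot be told apart.

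**Figure D2:**
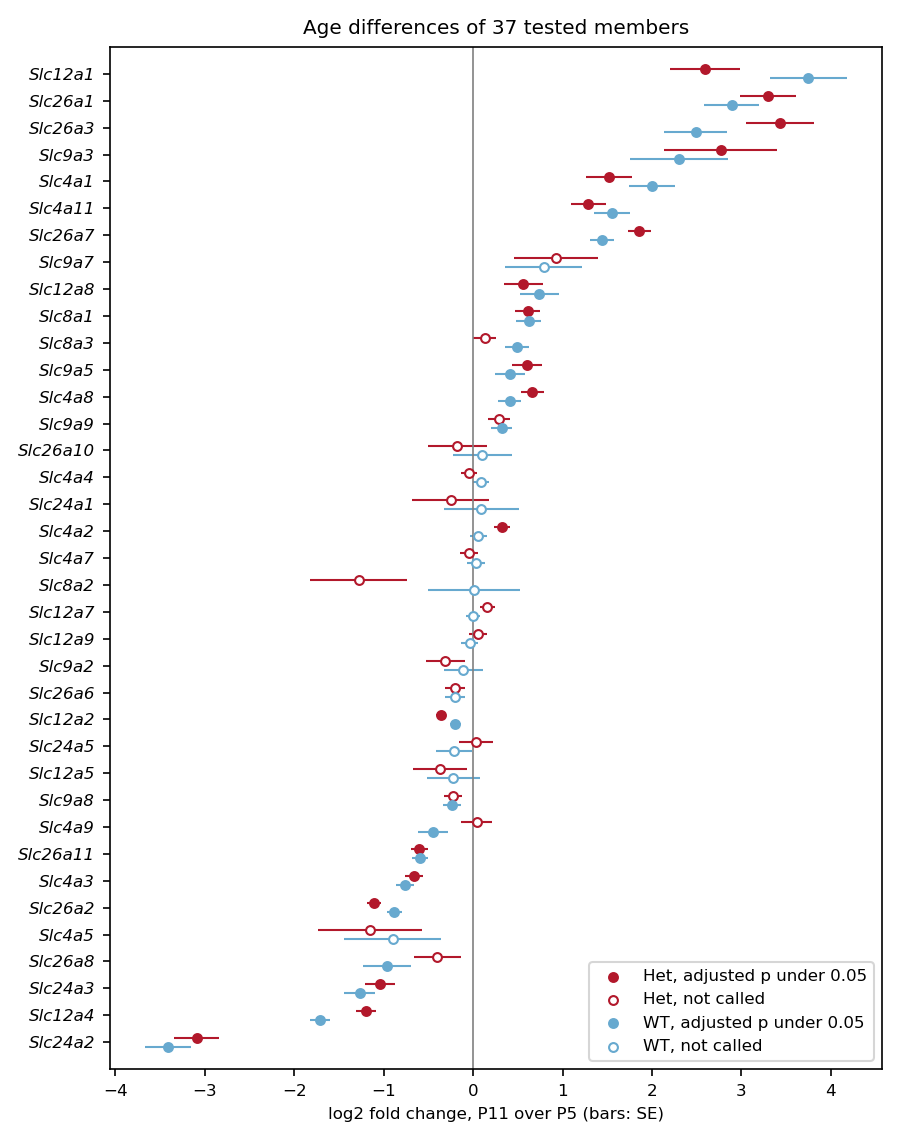
Log2 fold change between P11 and P5 for 37 of the 40 members tested, with bars of 1 SE, in Het (red) and WT (blue) molars; filled points had an edgeR adjusted p under 0.05. Slc26a1 stands at the high end, with Slc12a1 and Slc26a3, which passed the filter on low counts through P11 libraries only, and Slc24a2 at the low end in both genotypes.

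Several anion exchangers of the SLC26 family were higher at P11. Slc26a1 (SAT1), a sulfate and oxalate exchanger best known from liver and kidney, measured 17.1, 18.1, 15.2, 12.1 and 21.7 CPM in the P11 Het libraries, against a lowest, median and highest value of 0.655, 1.72 and 2.46 CPM in P5 Het libraries. In WT molars it measured 16.3, 16.4, 22.1, 9.17 and 10.7 CPM at P11, against 0.914, 1.94 and 3.09 CPM at P5. Every P11 library lay above every P5 library. The log2 fold change was 3.30 ± 0.31 in Het (SE, edgeR adjusted p = 4.7e-09) and 2.89 ± 0.31 in WT molars (adjusted p = 2.86e-08).

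Slc26a7, an anion exchanger and chloride channel of acid-secreting epithelia that is also known from maturation-stage ameloblasts, was the most abundant SLC26 gene. It measured 135, 118, 123, 109 and 89.6 CPM in P11 Het libraries, against 29.6, 31.6 and 33.5 CPM (lowest, median, highest) in P5 Het libraries. In WT libraries the values were 115, 107, 134, 67.1 and 80.8 CPM at P11, against 33.8, 37.2 and 40.3 CPM at P5. The groups of the 2 ages did not overlap, and the lowest P11 values were those of P11 WT 4 and P11 WT 5. Slc26a7 was 3.63-fold higher at P11 in Het (log2 1.86 ± 0.13, edgeR adjusted p = 1.56e-11) and 2.72-fold higher in WT molars (1.44 ± 0.13, adjusted p = 1.08e-09).

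Slc26a3 (DRA), the chloride-bicarbonate exchanger of the intestinal brush border, was expressed at a far lower level. It measured 1.12, 0.96, 1.27, 1.09 and 1.14 CPM in P11 Het libraries, against 0, 0.101 and 0.167 CPM (lowest, median, highest) in P5 Het libraries. The WT libraries gave 1.42, 1.48, 1.11, 0.816 and 0.964 CPM at P11, against 0.0284, 0.213 and 0.334 CPM at P5. These P5 levels rest on 0 to 12 counts a library. The log2 fold change was 3.43 ± 0.38 in Het and 2.49 ± 0.35 in WT molars (SE), given as a description, since Slc26a3 passed the filter on low counts through its P11 libraries only.

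Slc26a2 (DTDST), the sulfate importer that supplies proteoglycan sulfation in cartilage, was lower at P11. It measured 23.0, 28.5, 19.2, 22.2 and 23.2 CPM in P11 Het libraries, against 45.2, 51.2 and 54.0 CPM (lowest, median, highest) in P5 Het libraries. P11 WT libraries held 26.1, 26.6, 25.4, 25.5 and 23.5 CPM, against 41.0, 47.0 and 51.4 CPM in P5 WT libraries. No P11 library reached the lowest P5 library. The log2 fold change was -1.11 ± 0.08 in Het (edgeR adjusted p = 5.03e-11) and -0.88 ± 0.08 in WT molars (adjusted p = 2.58e-09). Slc26a11, a further sulfate and chloride carrier of the family, was also lower in both genotypes (log2 -0.60 in Het and -0.59 in WT).

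Of the other SLC26 genes, 1 was called, in WT molars. Slc26a6 (PAT1), a chloride, oxalate and bicarbonate exchanger, measured 8.72, 10.4, 9.81, 7.62 and 11.1 CPM in P11 Het and 9.64, 11.0, 9.72, 9.5 and 10.4 CPM in P11 WT libraries, overlapping the P5 ranges of 8.89 to 13.3 CPM in Het and 9.46 to 13.0 CPM in WT. Its log2 fold change of -0.20 in both genotypes had a 95% interval from -0.43 to 0.03 and did not pass the test. Slc26a8, known from sperm, measured 0.49, 0.56, 0.369, 0.528 and 0.685 CPM in P11 WT libraries, against 0.86, 0.948 and 1.4 CPM (lowest, median, highest) in P5 WT libraries, and was lower (log2 -0.96 ± 0.27, edgeR adjusted p = 0.00485). In Het molars it measured 0.418, 0.676, 1.15, 0.946 and 0.51 CPM at P11, against 0.579, 0.933 and 1.39 CPM at P5, and did not pass (log2 -0.40 ± 0.26, adjusted p = 0.218). The difference between the genotypes in that change was not called (adjusted p = 0.63).

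Slc26a4 (pendrin), the chloride, iodide and bicarbonate exchanger of thyroid, inner ear and kidney, did not reach the count filter. It had 3 to 10 counts in P11 Het libraries and 2 to 7 in P11 WT, against 2 to 27 in P5 Het and 1 to 11 in P5 WT. Slc26a9, a chloride transporter of airway and stomach epithelium, was not tested in the main fit either, but its counts were uneven. P11 WT 4 had 153, P11 WT 5 had 58 and P11 Het 2 had 55 counts, the other P11 libraries had 0 to 11 and the P5 libraries 0 to 4. The 3 high libraries are the 3 with the highest oral keratinocyte marker sums, and the part of such cells in the Slc26a9 counts was not tested.

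**Figure D3:**
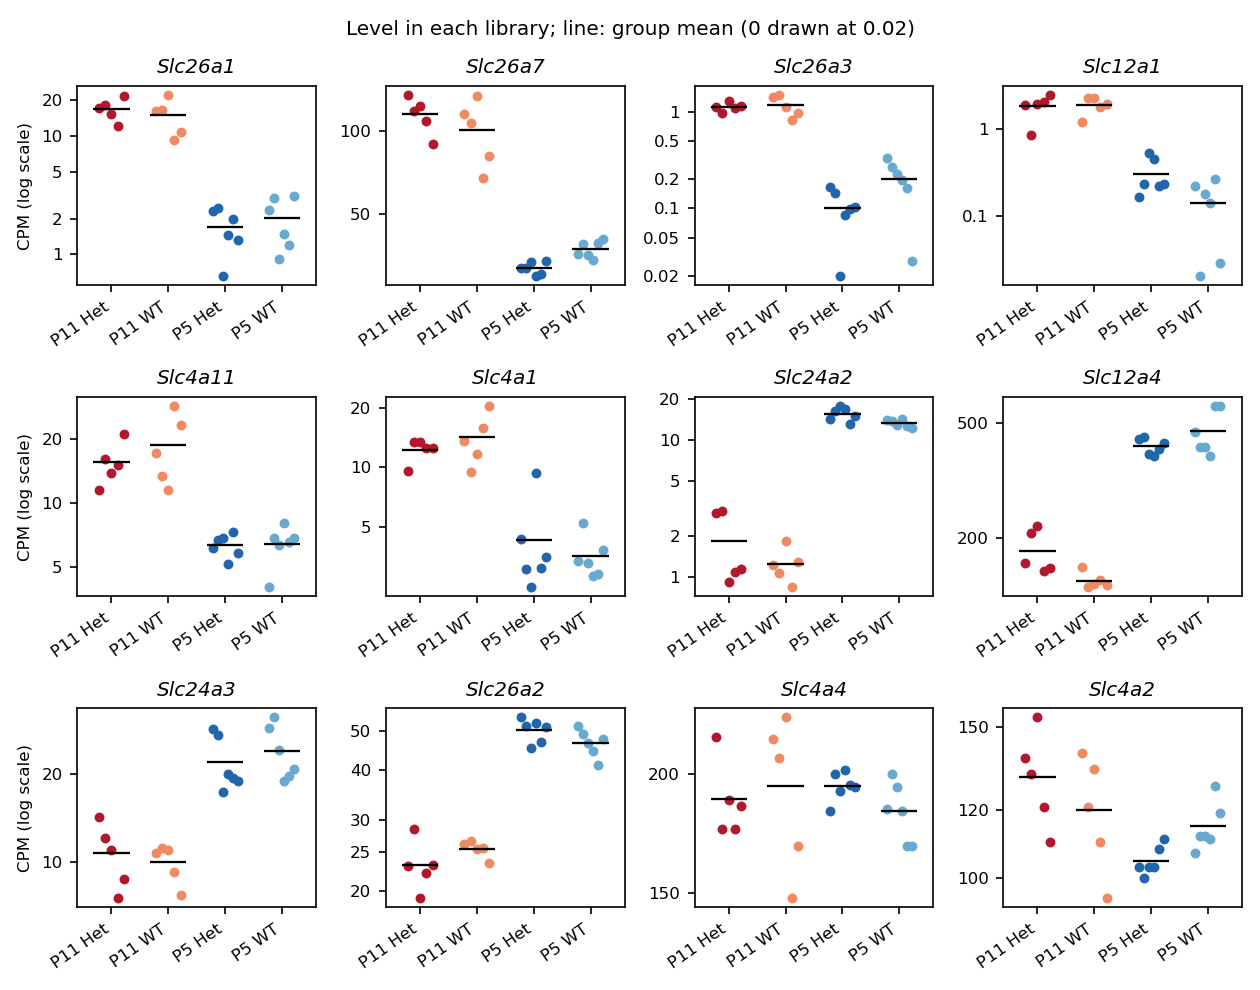
CPM per library on a log axis for 12 members, by group (P11 Het, P11 WT, P5 Het, P5 WT), with a line at the group mean and a value of 0 drawn at 0.02. For Slc26a1, Slc26a7, Slc26a3, Slc12a1, Slc4a1 and Slc4a11 the P11 libraries lie above the P5 libraries of the same genotype, and for Slc24a2, Slc12a4, Slc24a3 and Slc26a2 below them.

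In the SLC4 family the bicarbonate loader and the main exchanger were abundant at both ages. Slc4a4 measured 219, 175, 188, 175 and 185 CPM in P11 Het libraries, against 183, 194 and 202 CPM (lowest, median, highest) in P5 Het libraries. The WT libraries gave 218, 208, 230, 148 and 168 CPM at P11, against 168, 183 and 200 CPM at P5. The 2 lowest P11 WT values were those of WT 4 and WT 5, the libraries with raised oral keratinocyte markers. Slc4a4 did not pass in Het (log2 -0.05, 95% interval -0.24 to 0.15) or WT molars (0.09, interval -0.10 to 0.28), but in WT it was called higher without the 5 libraries with raised oral keratinocyte or muscle markers (log2 0.26, edgeR adjusted p = 0.0131).

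Slc4a2 measured 138, 132, 154, 121 and 110 CPM in P11 Het libraries, against 100, 103 and 111 CPM (lowest, median, highest) in P5 Het libraries. In WT libraries it measured 140, 121, 134, 110 and 94.7 CPM at P11, against 107, 112 and 128 CPM at P5. It was higher at P11 in Het (log2 0.32 ± 0.09, edgeR adjusted p = 0.00378) with overlapping ranges, and did not pass in WT molars (0.06, 95% interval -0.12 to 0.24). The difference between these age effects was 0.26 ± 0.12 and was not called (adjusted p = 0.478). Markers of osteoclasts, which use AE2, were also higher at P11: the sum of 10 was 311 to 468 CPM in P11 Het and 397 to 506 CPM in P11 WT libraries, against 56.7 to 98.1 CPM in P5 Het and 66.3 to 93.9 CPM in P5 WT. Their part in the level of Slc4a2 was not tested.

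Slc4a1 (band 3), the chloride-bicarbonate exchanger of red cells, measured 9.6, 13.4, 13.4, 12.5 and 12.5 CPM in P11 Het libraries, against 2.47, 3.29 and 9.35 CPM (lowest, median, highest) in P5 Het libraries. P11 WT libraries held 13.6, 9.52, 11.7, 15.8 and 20.5 CPM, against 2.81, 3.32 and 5.22 CPM in P5 WT libraries. The ages did not overlap, although P5 Het 4, at 9.35 CPM, lay just below the lowest P11 Het library. Slc4a1 was higher by a log2 of 1.52 ± 0.26 in Het (edgeR adjusted p = 3.5e-05) and 2.00 ± 0.26 in WT molars (adjusted p = 8.72e-07), and by 1.90 in Het without P5 Het 4. The sum of 9 erythroid markers was likewise 168 to 311 CPM in P11 Het and 196 to 408 CPM in P11 WT libraries, against 68.3 to 92.9 CPM in P5 Het and 51.2 to 94.7 CPM in P5 WT. Of these 9 markers 8 were higher at P11 in each genotype, none was at 0 in all libraries of a group, and their part in the level of Slc4a1 was not tested.

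Slc4a11, a proton-permeable transporter of the corneal endothelium, measured 11.5, 16.1, 13.8, 15 and 21.1 CPM in P11 Het libraries, against 5.15, 6.4 and 7.32 CPM (lowest, median, highest) in P5 Het libraries. WT values were 17.2, 13.3, 11.5, 28.5 and 23.2 CPM at P11, against 4.01, 6.67 and 8.04 CPM at P5. The 2 highest WT values were those of WT 4 and WT 5. Slc4a11 was higher by a log2 of 1.29 ± 0.20 in Het (edgeR adjusted p = 8.69e-06) and 1.55 ± 0.20 in WT molars (adjusted p = 6.26e-07), and by 1.27 and 1.13 without the 5 libraries with raised oral keratinocyte or muscle markers.

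Slc4a3 (AE3), the exchanger known from heart and brain, was lower at P11. It measured 19.8, 18.3, 18.8, 18.3 and 14 CPM in P11 Het libraries, against 26.4, 28.2 and 30.1 CPM (lowest, median, highest) in P5 Het libraries. In WT libraries it measured 16.2, 15.7, 18.8, 13.7 and 11.5 CPM at P11, against 23.4, 25.9 and 27.9 CPM at P5. Without overlap between the ages, the log2 fold change was -0.66 ± 0.10 in Het (edgeR adjusted p = 5.27e-06) and -0.76 ± 0.10 in WT molars (adjusted p = 6.99e-07). Slc4a8, a sodium-driven chloride-bicarbonate exchanger known from neurons, was higher in both (log2 0.66 in Het and 0.41 in WT). Slc4a9 was lower in WT molars (log2 -0.45, edgeR adjusted p = 0.0321), a call that 9 alternative settings did not keep, and gave 0.04 in Het. Slc4a5 and Slc4a7, sodium-bicarbonate cotransporters, did not pass in either genotype. Without the 5 libraries with raised oral keratinocyte or muscle markers, Slc4a5 was called lower in Het (log2 -1.83, edgeR adjusted p = 0.0255, against -1.15 with them), on 1 to 18 counts a library. Over all libraries it reached the minimum count of the filter in 1 P5 Het and 3 P5 WT, against 0 P11 Het and 1 P11 WT.

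Among the sodium-proton exchangers, Slc9a3 (NHE3), the apical exchanger of kidney and gut, was near the detection limit. It measured 0.232, 0.72, 0.0961, 0.355 and 0.255 CPM in P11 Het libraries, against 0, 0.0536 and 0.0893 CPM (lowest, median, highest) in P5 Het libraries. P11 WT libraries held 0.619, 0.331, 0.172, 0.864 and 0.533 CPM, against 0, 0.0967 and 0.215 CPM in P5 WT libraries. The highest values were those of P11 WT 4 and P11 Het 2, both with raised oral keratinocyte markers. Slc9a3 also passed the filter through P11 libraries only, so its log2 fold change is a description: 2.77 ± 0.63 in Het and 2.30 ± 0.55 in WT molars (SE), and 1.84 and 1.87 without the 5 libraries with raised oral keratinocyte or muscle markers.

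Of the other SLC9 genes, Slc9a5, known from brain, was higher in both genotypes (log2 0.60 in Het and 0.41 in WT); the Het call was lost under 1 and the WT call under 10 of 27 alternative settings. Slc9a9 of late endosomes gave 0.29 in Het (edgeR adjusted p = 0.0536) and 0.32 in WT molars (adjusted p = 0.0363), so that WT passed and Het did not. Slc9a8 of the Golgi gave -0.22 in Het (edgeR adjusted p = 0.0586) and -0.24 in WT molars (adjusted p = 0.0404). The WT calls of Slc9a9 and Slc9a8 were lost under 8 and 12 of the alternative settings, and in Het they were gained under 8 and 1. Slc9a2 and Slc9a7 of the trans-Golgi network did not pass. Slc9a7 in WT molars was called higher without P5 WT 1 alone (log2 1.24, edgeR adjusted p = 0.0164, against 0.79 with it).

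The SLC12 cotransporters split by direction. Slc12a4 was the highest of all members and was lower at P11. It measured 164, 208, 220, 154 and 158 CPM in P11 Het libraries, against 384, 416 and 446 CPM (lowest, median, highest) in P5 Het libraries. WT values were 159, 136, 139, 144 and 138 CPM at P11, against 384, 439 and 570 CPM at P5. The highest P11 library had 220 CPM and the lowest P5 library 384 CPM. The log2 fold change was -1.20 ± 0.11 in Het (edgeR adjusted p = 3.1e-09) and -1.71 ± 0.11 in WT molars (adjusted p = 7.09e-12). The secretory-stage marker sum moved the same way, as given above, and its part in the level of Slc12a4 was not tested.

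Slc12a1 (NKCC2), the sodium-potassium-chloride cotransporter of the thick ascending limb of the kidney, measured 1.93, 0.873, 1.95, 2.06 and 2.5 CPM in P11 Het libraries, against 0.167, 0.232 and 0.536 CPM (lowest, median, highest) in P5 Het libraries. The WT libraries gave 1.21, 2.32, 2.29, 1.82 and 1.98 CPM at P11, against 0, 0.159 and 0.269 CPM at P5. The ages did not overlap, on 40 to 108 counts a library at P11 and 0 to 18 at P5. Its log2 fold change was 2.59 ± 0.39 in Het and 3.75 ± 0.43 in WT molars (SE). These are descriptions, as Slc12a1 too passed the filter through its P11 libraries only.

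Slc12a2 (NKCC1), the widespread form of the same cotransporter, was lower at P11 by a small margin. It measured 56.5, 59.4, 62.7, 53.9 and 54.6 CPM in P11 Het libraries, against 65.4, 73.9 and 79.1 CPM (lowest, median, highest) in P5 Het libraries. In WT libraries it measured 64.4, 59.5, 58.2, 58.0 and 54.5 CPM at P11, against 62.8, 67.5 and 74.7 CPM at P5. The ranges overlapped in WT only by P11 WT 1. The log2 fold change was -0.36 ± 0.06 in Het (edgeR adjusted p = 2.87e-05) and -0.20 ± 0.06 in WT molars (adjusted p = 0.00761); the WT call was lost without the 5 libraries with raised oral keratinocyte or muscle markers (-0.16, adjusted p = 0.101). Slc12a8 was higher in both genotypes (log2 0.56 in Het and 0.74 in WT), a call that 8 alternative settings did not keep in Het.

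Slc12a7 (KCC4), a further potassium-chloride cotransporter, did not pass the age test. It measured 95.9, 101, 102, 95.1 and 87.3 CPM in P11 Het and 93.2, 79.4, 78.1, 88.0 and 84.7 CPM in P11 WT libraries, against 77.6 to 95.3 CPM in P5 Het and 72.3 to 104 CPM in P5 WT libraries. Its 95% interval was -0.01 to 0.32 in Het and -0.16 to 0.17 in WT molars. In Het it was called higher with a replicate block (log2 0.20, edgeR adjusted p = 0.0313) and without P5 WT 6 (0.17, adjusted p = 0.0482). Slc12a5 (KCC2 of neurons) did not pass either, with a log2 fold change of -0.37 in Het and -0.22 in WT molars, nor did Slc12a9, with 0.05 in Het and -0.04 in WT. Slc12a3, with 2 to 30 counts at P11 and 0 to 7 at P5, was not tested in the main fit. With no filter on low counts it was called in both genotypes.

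Of the SLC8 sodium-calcium exchangers, 1 was higher in both genotypes and 1 in WT molars. Slc8a1 (NCX1), the exchanger of heart and most other tissues, measured 8.72, 7.79, 7.79, 6.98 and 8.44 CPM in P11 Het libraries, against 4.16, 5.34 and 5.9 CPM (lowest, median, highest) in P5 Het libraries. P11 WT libraries held 7.17, 6.67, 8.24, 6.07 and 6.95 CPM, against 2.5, 4.87 and 5.37 CPM in P5 WT libraries. The ages did not overlap. Slc8a1 was higher by a log2 of 0.61 ± 0.14 in Het (edgeR adjusted p = 0.00108) and 0.62 ± 0.14 in WT molars (adjusted p = 0.000989).

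Slc8a3 (NCX3), known from muscle, brain and ameloblasts, measured 14, 16.7, 14.2, 22.2 and 19.0 CPM in P11 Het libraries, against 13.3, 15.5 and 19.9 CPM (lowest, median, highest) in P5 Het libraries. WT values were 13.5, 20, 18.4, 21.4 and 18.8 CPM at P11, against 11.1, 13.0 and 15 CPM at P5. The ranges overlapped in both genotypes. It was higher in WT (log2 0.49 ± 0.13, edgeR adjusted p = 0.00289) and did not pass in Het molars (0.13, 95% interval -0.15 to 0.40), and the difference between the genotypes was not called (adjusted p = 0.5). Slc8a2 did not pass in either genotype by edgeR (log2 -1.28 in Het, adjusted p = 0.0529), but 7 alternative settings called it lower in Het. These calls rest on 0 to 7 counts in P11 Het and 4 to 15 in P5 Het libraries. Slc8a2 reached the minimum count of the filter in 2 P5 Het and 2 P5 WT libraries, against 0 P11 Het and 1 P11 WT library.

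The SLC24 genes analysed here, which exchange sodium for calcium and potassium, were lower at P11 where they were called. Slc24a2 (NCKX2), known from neurons and cones, measured 2.93, 3.03, 0.913, 1.09 and 1.14 CPM in P11 Het libraries, against 13.2, 15.7 and 17.8 CPM (lowest, median, highest) in P5 Het libraries. The WT libraries gave 1.21, 1.07, 1.84, 0.84 and 1.29 CPM at P11, against 12.3, 13.4 and 14.3 CPM at P5. Every P11 library lay far below every P5 library, with P11 Het 1 and 2 the highest of the P11 libraries. Slc24a2 was 8.51-fold lower at P11 in Het (log2 -3.09 ± 0.25, edgeR adjusted p = 3.79e-10) and 10.7-fold lower in WT molars (-3.41 ± 0.26, adjusted p = 1.1e-10), the largest lower call among the members in both genotypes. Nerve is a tissue where Slc24a2 is known. The sum of 10 nerve and Schwann cell markers was 944 to 1110 CPM in P11 Het and 842 to 1030 CPM in P11 WT. At P5 it was 755 to 906 CPM in Het and 761 to 976 CPM in WT libraries. Of the 7 markers tested, 5 were higher and 2 lower at P11 in Het molars, and 4 higher and 2 lower in WT. Of all genes tested, 24.4% were higher and 23.4% lower in Het, and 24.8% and 24.7% in WT. The part of nerve in the level of Slc24a2 was not tested.

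Slc24a3 (NCKX3) measured 14.2, 12.1, 11.0, 7.48 and 8.74 CPM in P11 Het libraries, against 17.4, 19.7 and 28.6 CPM (lowest, median, highest) in P5 Het libraries. In WT libraries it measured 10.7, 11.1, 11.0, 9.21 and 7.69 CPM at P11, against 18.9, 22.5 and 31.5 CPM at P5. The ages did not overlap, and the log2 fold change was -1.04 ± 0.17 in Het (edgeR adjusted p = 2.38e-05) and -1.27 ± 0.17 in WT molars (adjusted p = 1.48e-06). Slc24a1 of rods and Slc24a5 of melanosomes did not pass.

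The proteins that make or recycle bicarbonate and drive these carriers were listed as 50 genes, of which 46 were tested. At P11 compared with P5, 20 were higher and 7 lower in Het molars and 22 higher and 7 lower in WT molars, where 24.4% of all genes tested were higher and 23.4% lower in Het and 24.8% and 24.7% in WT. The median log2 fold change of the list was 0.20 in Het and 0.32 in WT, against -0.01 over all genes. Cftr, the chloride channel that recycles chloride for the exchangers, averaged 95.2 ± 17.5 CPM in P11 Het and 19.8 ± 2.19 CPM in P5 Het libraries (SD, n = 5 and 6), and 112 ± 17.4 CPM in P11 WT and 15.1 ± 3.35 CPM in P5 WT libraries. Its log2 fold change was 2.26 in Het and 2.89 in WT molars. The secreted carbonic anhydrase Car6 averaged 12 ± 7.45 CPM in P11 Het and 0.71 ± 0.241 CPM in P5 Het libraries, and 12.1 ± 6.01 CPM in P11 WT and 0.499 ± 0.239 CPM in P5 WT libraries (log2 4.09 in Het and 4.60 in WT). The cytosolic Car3 (log2 1.48 in both genotypes) and mitochondrial Car5b (1.25 and 1.33) were higher as well, and cytosolic Car2, at 69.4 ± 12.3 CPM in P11 Het against 34.9 ± 1.92 CPM in P5 Het libraries, was higher by 0.99 in Het and 0.79 in WT.

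Regulators that bind the exchangers went both ways. Slc9a3r1 (NHERF1), a scaffold for NHE3 and CFTR, was higher by a log2 of 1.86 in Het and 1.77 in WT molars, and Ahcyl1 (IRBIT), an activator of NBCe1, by 0.94 and 1.11. Of the calcium-binding partners of sodium-proton exchangers, Chp1 was higher (0.29 and 0.34), while Tesc was lower. Tesc averaged 5.10 ± 1.15 CPM in P11 Het and 53.3 ± 5.13 CPM in P5 Het libraries (log2 -3.38). In WT it averaged 4.94 ± 0.328 CPM at P11 and 43.8 ± 3.71 CPM at P5 (log2 -3.15). Chp2, a further such partner, gave -1.17 and -1.88, on 0.0515 to 0.457 CPM at P11 and 0.296 to 1.19 CPM at P5. It passed the filter on low counts through its P5 libraries only. A lower level at P11 was thus built into its being tested, and its values are a description. The kinase Wnk3, which controls SLC12 cotransporters, was lower (-1.28 and -1.14). The subunits of the sodium pump, which sets up the sodium gradient that the exchangers use, changed in opposite directions: Atp1b3 was higher (1.45 and 1.41), Atp1b2 lower (-1.36 and -1.52), and the associated Fxyd5 higher (1.85 and 2.17). No gene of this list passed between the genotypes at either age (4 and 5 of 46 with an unadjusted p under 0.05 at P11 and P5, against 9.85% and 6.22% of all genes).

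Of 37 calcium-handling genes, 33 were tested; 14 were higher and 6 lower at P11 in Het molars, and 14 higher and 5 lower in WT, against the same shares of all genes (24.4% and 23.4% in Het, 24.8% and 24.7% in WT). The median log2 fold change was 0.20 and 0.26. Itpr2, a calcium release channel of the endoplasmic reticulum, averaged 118 ± 14 CPM in P11 Het and 16.5 ± 0.923 CPM in P5 Het libraries, and 133 ± 7.91 CPM in P11 WT and 16.7 ± 2.57 CPM in P5 WT libraries (log2 2.84 in Het and 2.99 in WT). The related Itpr1 was lower (-1.61 and -1.57). The store pumps Atp2a2 (1.41 and 1.5) and Atp2a3 (1.92 and 2.05), the Golgi calcium and manganese pump Atp2c2 (1.55 and 1.27), the entry channels Orai1 (0.71 and 1.09) and Orai2 (0.99 and 1.22) and the calcium-binding S100g (2.08 and 1.89) were higher. The plasma membrane pumps Atp2b1 (-1.27 and -1.19) and Atp2b3 (-1.83 and -2.51), which export calcium like the SLC24 genes, were lower, as was the release channel Ryr3 (-1.18 and -1.29). No gene of this list passed between the genotypes at either age (7 and 2 of 33 with an unadjusted p under 0.05 at P11 and P5, against 9.85% and 6.22% of all genes).

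The comparison of Het with WT molars asks whether the receptor allele alters these carriers. At P11 none of the 40 members passed, where 0.0232% of all genes were higher and 0.00465% lower in Het. At P5 none passed either, where 0.0651% of all genes were higher and 0.195% lower. With no adjustment, 4 of 40 members had a p under 0.05 at P11 (against 9.85% of all genes) and 7 at P5 (17.5%, against 6.22%), and in the test of the difference between ages 4 did (against 10.3% of all genes). DESeq2 called no member in these 3 comparisons. With libraries taken as independent, the data limited the size of a difference for the well-measured members. Some libraries may share an animal, and the intervals do not allow for that. For the 19 members with a mean of at least 10 CPM, every 95% interval at both ages lay within 2-fold either way, as did 33 of all 40 intervals at P11 and 34 at P5.

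**Figure D4:**
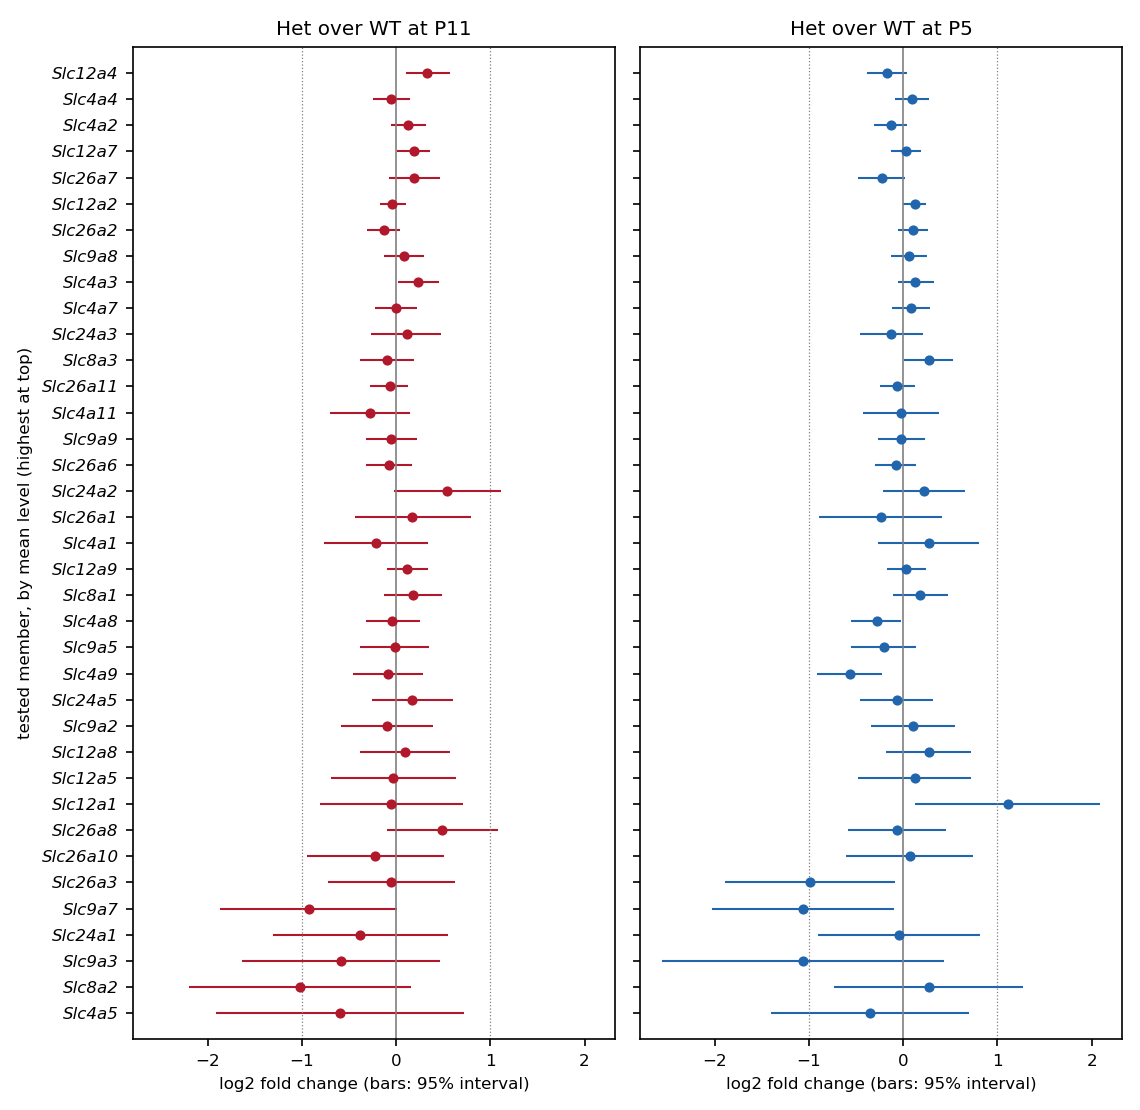
Log2 fold change of Het over WT at P11 and at P5 for 37 of the 40 members tested, ordered by mean level, with 95% intervals; dotted lines mark 2-fold either way. The intervals narrow toward the abundant members, and all 16 members drawn that have a mean of at least 10 CPM stay between the dotted lines at both ages.

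The smallest p at P11 was that of Slc12a4, at 164, 208, 220, 154 and 158 CPM in P11 Het against 159, 136, 139, 144 and 138 CPM in P11 WT libraries. The high values were those of Het 2 and Het 3, and the groups overlapped by Het 4 and Het 5, which lay below WT 1. The log2 fold change was 0.33 ± 0.11 (edgeR adjusted p = 0.344, and 0.177 to 0.725 over the alternative settings). Under library-name prefix 1 the Het libraries had 164 to 220 CPM and the WT libraries 136 to 159 CPM, and under prefix 2 they had 154 to 158 CPM and 138 to 144 CPM. The summed secretory-stage markers were 34200, 45700, 43100, 21800 and 19100 CPM in P11 Het and 27000, 24500, 25900, 18700 and 18200 CPM in P11 WT libraries, highest in Het 2 and 3 as well, and their part in this difference was not tested. Slc4a3 (log2 0.23), Slc12a7 (0.19) and Slc9a7 (-0.93) had the other unadjusted p under 0.05, with adjusted p of 0.467 to 0.502. For Slc9a7 the values were 0.302, 0.131, 0.385, 0.781 and 0.325 CPM in P11 Het against 0.541, 1.15, 0.467, 0.552 and 0.964 CPM in P11 WT libraries.

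At P5 the smallest p was that of Slc4a9 (AE4), an exchanger known from the kidney. Its lowest, median and highest values were 2.09, 3.19 and 4.63 CPM in P5 Het and 3.71, 5.11 and 6.05 CPM in P5 WT libraries. The groups overlapped, and the log2 fold change was -0.57 ± 0.16 (edgeR adjusted p = 0.235, and 0.0558 to 0.73 over the alternative settings). The other 6 with an unadjusted p under 0.05 were Slc12a1 (1.11), Slc9a7 (-1.06), Slc26a3 (-0.99), Slc4a8 (-0.28), Slc8a3 (0.27) and Slc12a2 (0.12), with adjusted p of 0.707 to 0.792. Slc9a7 had 0.0863, 0.23 and 0.283 CPM in P5 Het and 0.189, 0.304 and 0.974 CPM in P5 WT libraries. Slc26a7 was the 1 member whose P5 groups did not overlap, with 29.6 to 33.5 CPM in Het below 33.8 to 40.3 CPM in WT libraries, where 0.344% of all genes lay fully above and 0.507% fully below. Its log2 fold change of -0.23 ± 0.12 did not pass (edgeR adjusted p = 0.843), and at P11, where no member was without overlap (0.614% and 0.748% of all genes), it was 0.19 ± 0.13 with overlapping groups. The sum of maturation-stage markers was 1620 to 2530 CPM in P5 Het and 2280 to 3380 CPM in P5 WT libraries. Of the 10 tested, 1 was called higher and 1 lower in Het at P5 (0.0651% and 0.195% of all genes). Their part in the level of Slc26a7 was not tested.

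The difference of the genotype effect between P11 and P5 had its smallest p for Slc12a4, at a log2 of 0.51 ± 0.15 (edgeR adjusted p = 0.354). Slc26a7 gave 0.42 ± 0.18 (adjusted p = 0.438), Slc4a2 0.26 ± 0.12 (adjusted p = 0.478) and Slc26a2 -0.23 ± 0.11 (adjusted p = 0.482). None passed.

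Library names carry a numeric prefix whose meaning is not given; it was 1 or 2 at P11 and 3, 4 or 5 at P5. Under prefix 2 compared with prefix 1, with genotype in the model, 1 of 41 members was higher and 4 were lower, where 1.5% of all genes were higher and 1.97% lower. Slc4a11 was higher under prefix 2 (log2 0.64), and Slc12a5 (-1.03), Slc26a7 (-0.50), Slc24a3 (-0.49) and Slc4a2 (-0.32) were lower. For Slc26a7 the prefix 2 libraries held 89.6 to 109 CPM in Het and 67.1 to 80.8 CPM in WT, against 118 to 135 CPM and 107 to 134 CPM under prefix 1. When single libraries were left out, 0 to 2 members were higher and 0 to 6 lower. No member was called in either direction once the 3 P11 libraries with raised oral keratinocyte markers were left out, 2 of which have prefix 2. These 2 are the only WT libraries of prefix 2, so that fit held prefix 2 in Het alone. Whether the loss of calls came with the markers or with fewer libraries was not tested. Under prefix 4 compared with prefix 3 at P5, no member of 38 was higher and 2 were lower, where 0.921% of all genes were higher and 0.659% lower. Slc24a3, 1 of these, measured 17.4 to 20 CPM in Het and 18.9 to 24.2 CPM in WT libraries under prefix 4, against 27.4 to 28.6 CPM and 28.9 to 31.5 CPM under prefix 3 (log2 -0.55, edgeR adjusted p = 0.00956).

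**Figure D5:**
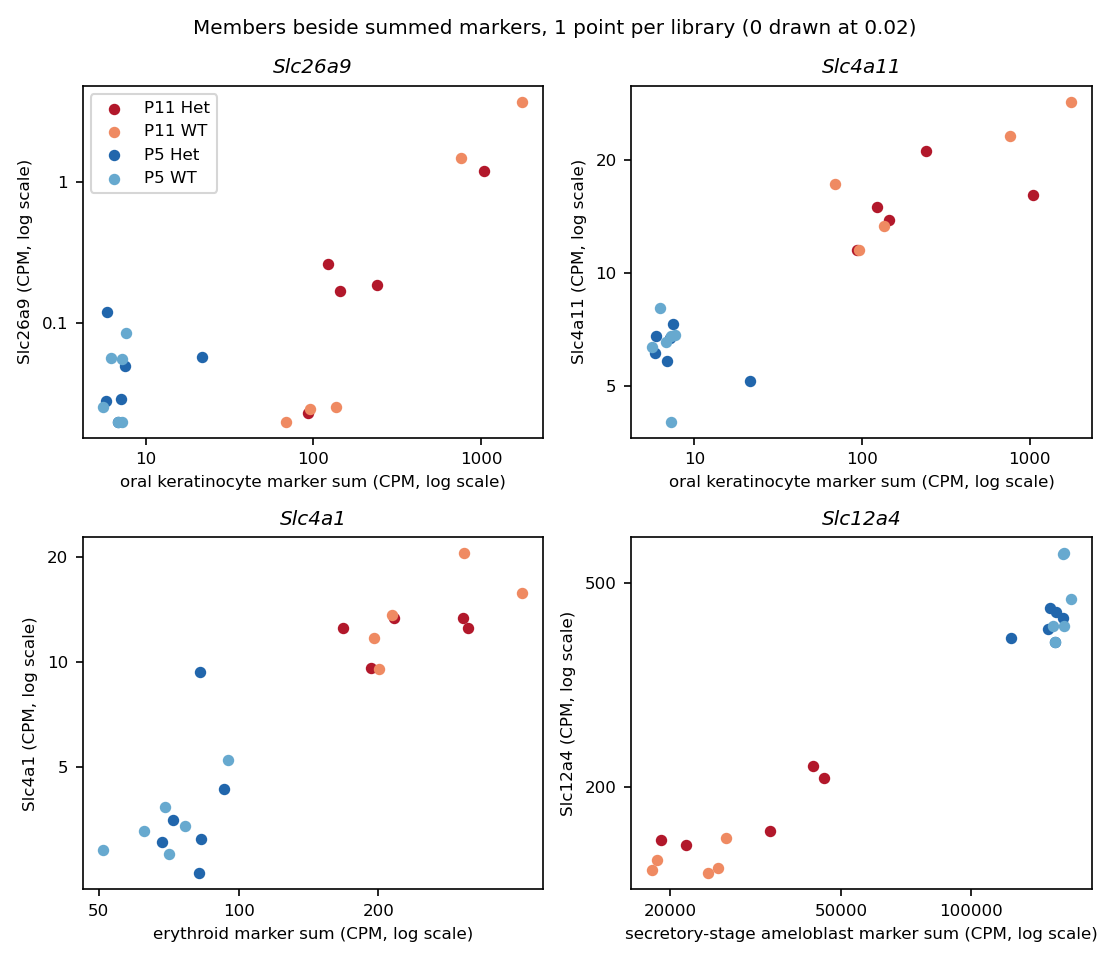
CPM of 4 members against the summed CPM of a marker list in each library, on log axes: Slc26a9 and Slc4a11 against 12 oral keratinocyte markers, Slc4a1 against 9 erythroid markers and Slc12a4 against 10 secretory-stage ameloblast markers. The 3 libraries with the highest Slc26a9 levels have the 3 highest oral keratinocyte sums, and the ages separate along both axes for Slc4a1 and Slc12a4.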

How the data were processed

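Total RNA of first mandibular molars was made into unstranded Nextera XT libraries and sequenced as 100-base paired ends, per the labels' protocols. STAR 2.7.3a, GRCm38, DESeq2, edgeR and limma are named in the submitters' processing notes; which read counter was used is not given in the sources used here. Raw counts per gene, as deposited by the authors, were used, and 18 non-mouse features (0.000109% to 0.000457% of counts) were left out. The deposited normalised signal table holds the authors' counts scaled by TMM library size (CPM) and supplied gene names. With TMM factors recomputed on its 28711 rows, values with a count above 0 differed from it by at most 5.1e-15 in relative terms. The CPM values given here use library sizes and factors from the 21510 genes tested, so they need not equal the deposited ones. Without molecular identifiers, reads copied from the same molecule could not be told apart.

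All 22 libraries were fitted together in edgeR 4.0.16 (R 4.3.3) with 1 mean per age and genotype group, TMM factors, filterByExpr (minimum count 10, minimum total 15, which left 21510 genes), a two-sided quasi-likelihood test and Benjamini-Hochberg adjustment over all genes tested at 0.05. SE was the log2 fold change divided by the root of F, and 95% intervals used 18 residual degrees of freedom. The fit was tested on simulated counts. CPM used TMM-scaled library sizes, and values per kilobase used the exon union of GENCODE M21. The 4 members under the filter were Slc12a3, Slc26a4, Slc26a9 and Slc9a4.

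The members, gene lists and tests were chosen with earlier results of these data known. Values per library were given for any member called by genotype, for the 12 called members with the largest age change in WT, for 13 members known from ameloblasts, red cells or bone, and for the 3 with the smallest p between Het and WT at each age; partner genes were named when called with a log2 change of at least 1 in WT. Car2 and Chp1 were named after their values were seen. For 3 members, which stay in all counts and fits, results are not reported here. Alternatives were DESeq2 1.42.0 and its size factors, no filter on low counts, a replicate block, a prefix block, fits of 2 groups, limma-voom 3.58.1 (added after seeing the data), and leaving out single libraries, the 5 libraries with raised oral keratinocyte or muscle markers, or, for the prefix at P11 (also added), 3 of these.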

Additional observations from a re-analysis of the deposited data

Results flagged for a closer look

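In 4 of the 96 groups of values examined, 1 library stood apart from the rest of its group by Dixon's criterion; chance flags about 1 in 20 groups. Slc4a1, the red-cell exchanger, was low in P11 Het 1 (9.60 CPM, with the nearest library at 12.5 CPM) and high in P5 Het 4 (9.35 CPM, nearest 4.32 CPM). The summed erythroid markers of P5 Het 4 were 82.4 CPM, inside the P5 Het range of 68.3 to 92.9 CPM, and those of P11 Het 1 were 193 CPM, inside the P11 Het range of 168 to 311 CPM. Slc4a3 was low in P11 Het 5 (14 CPM, nearest 18.3 CPM), and the sodium-calcium exchanger Slc8a1 was low in P5 WT 6 (2.5 CPM, nearest 4.65 CPM).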

How the results depend on the processing

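No member called between P11 and P5 changed its direction under any alternative that tested it. The direction of effects that were not called was not compared. Between Het and WT, 0 members were called at P5, at P11 and in the difference between the ages under all of 30, 30 and 28 alternatives. Of the members called at P11 against P5, 18 of 20 in Het and 19 of 24 in WT molars were called under all 27 alternatives; Slc12a8 and Slc9a5 in Het and Slc12a2, Slc4a9, Slc9a5, Slc9a8 and Slc9a9 in WT were not. When single libraries were left out, 12 to 15 members were higher and 7 to 8 lower in Het, and 12 to 15 higher and 8 to 10 lower in WT. The counts by library-name prefix were the least stable: 0 to 2 members higher and 0 to 6 lower at P11, and 1 to 3 lower at P5, with Slc24a3 among them each time. Without the 3 P11 libraries with raised oral keratinocyte markers, the P11 counts were 0 higher and 0 lower; the cause was not tested. Slc12a7 in Het was called higher without P5 WT 6 (log2 0.17, edgeR adjusted p = 0.0482). DESeq2 called 2 further members in Het, Slc8a2 (lower) and Slc9a9 (higher). Members outside the main fit were called too, on few counts. With no filter on low counts these were Slc12a3 in both genotypes and Slc26a9 in WT. Slc26a9 was also called in both genotypes in some fits that left out a single P11 library. A prefix block could not be fitted for age.

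The replicate numbers gave no clear pairing: same-numbered libraries correlated at -0.134 to 0.208, over 0.1 in 4 of 21 pairs. These 4 were Het and WT libraries of the same age and prefix. They were numbers 1, 2 and 4 at P5 (0.208, 0.181 and 0.113) and number 1 at P11 (0.106). The lowest value was also from such a pair, number 2 at P11. With a replicate block, 14 members were higher and 7 lower at P11 in Het, 13 higher and 8 lower in WT, and 0 were called between the genotypes; Slc12a7 was then called higher in Het (log2 0.20, adjusted p = 0.0313). The intervals between Het and WT that reached beyond 2-fold, 7 at P11 and 6 at P5, belong to members under 1 CPM on average, apart from Slc24a2 at P11, and these rest on few counts.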
